A study of Mus musculus with 11 samples.

Results

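The 9 genes described here build, load and switch on the major histocompatibility complex class II (MHC class II): H2-Aa, H2-Ab1, H2-Eb1, Cd74, H2-DMa, H2-DMb1, H2-Oa, H2-Ob and Ciita. They were chosen by name, as the rows whose mouse Ensembl identifier maps to these symbols, and they make up 9 of the 21899 genes listed. The RNA came from the airways of wild-type male BALB/c mice aged 6 to 8 weeks, in 3 libraries of the PBS group, 4 of OVA/LPS/Vehicle (OL) and 4 of OVA/LPS/GGsTop (OLG). PBS mice were neither sensitized nor challenged and received phosphate-buffered saline (PBS) alone. Both other groups were injected with ovalbumin (OVA) in alum on days 0 and 7, given OVA into the nose from day 14 to day 17 and bacterial lipopolysaccharide (LPS) into the nose on days 19 and 21. On days 21, 22 and 23 they received GGsTop, an inhibitor of γ-glutamyl transferase, or its vehicle into the trachea, and endpoints were taken on day 25. Whether PBS mice also received vehicle into the trachea is not stated, so OL against PBS compares the whole procedure. The labels name the tissue trachea, whereas the study's methods describe larger airways freed of parenchyma with the trachea cut away.

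MHC class II proteins carry peptides of swallowed antigen to the cell surface, where CD4+ T cells read them, and dendritic cells, B cells and activated macrophages are their main users. An α and a β chain pair in the endoplasmic reticulum and are held by the invariant chain (Cd74), whose last fragment, CLIP, stays in the groove until the editor H2-DM exchanges it for peptide. H2-O binds H2-DM and holds it back, mainly in B cells and thymic epithelium. Ciita is the transactivator without which these genes are largely silent. In the allergic airway this pathway presents peptides of OVA to T helper cells.

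Ciita works through proteins bound to a pair of short promoter elements, the X and Y boxes, so these elements were read from the promoters of the genes. Of the 9 genes, 6 had an entry in the RefSeq promoter table (GRCm38.p6). H2-Ab1, Cd74 and Ciita had none. The letters CNNGNAAC, after the X box, and TGATTGG, after the Y box, were searched on both strands of the 250 bases before each start, and a pair was counted where both lay on the same strand with 10 to 30 bases between them, so that they never overlapped. These letters were chosen with the promoters in view. The pair was found in 5 of the 6 genes, the exception being H2-DMa, and in 47 of all 32851 promoters (0.143%). The X letters alone occurred in 33.3% of all promoters and the Y letters alone in 7.23%. Besides the 5 genes, H2-Eb2, another class II β chain, held the pair, among 42 genes of 27025 in the table. The stretches of a classical α chain, a classical β chain and the β chain of H2-O are shown because they stand for the structural and the inhibitory arm, with the X and Y letters in capitals, 5′ to 3′ on the strand of the gene.
H2-Aa (chr17:34287855-34287919, minus strand): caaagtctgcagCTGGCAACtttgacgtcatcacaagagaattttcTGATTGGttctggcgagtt
H2-Eb1 (chr17:34305761-34305824, plus strand): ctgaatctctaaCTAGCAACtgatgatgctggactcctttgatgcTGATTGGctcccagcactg
H2-Ob (chr17:34238803-34238864, plus strand): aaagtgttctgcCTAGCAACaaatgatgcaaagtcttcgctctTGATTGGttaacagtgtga
H2-Eb1 and H2-Ob carry the same X letters, CTAGCAAC, with 25 and 23 bases between the boxes. H2-Oa (CCAGCAAC) and H2-DMb1 (CTAGTAAC) have a spacing of 26 bases, as has H2-Aa. A match of letters is a description and does not show that a factor was bound in these airways.

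The deposited values are FPKM, fragments counted per kilobase of exon and scaled to the total of the library. The length is that of all annotated exons of a gene merged, for example 3798 bases for H2-Aa and 1944 for H2-Eb1. Levels of different genes, and ratios between them, can be compared only as far as these lengths hold. The libraries held 14513136 to 18632382 fragments, as implied by the FPKM and the exon lengths. Expression of airway epithelial markers was high, with a sum over 7 genes, the club cell gene Scgb1a1 first among them, of 28175 to 50898 FPKM, and alveolar type 2 markers, which belong to lung parenchyma, summed to 9911 to 15911 FPKM in PBS, 5131 to 8570 in OL and 4625 to 11623 in OLG. A pair of libraries stood apart. In PBS 3, gene levels climbed with GC content by 0.533 log2 units per 10 GC points, and OL 12 had 58.4 FPKM over 12 markers of immature thymocytes and thymic epithelium, against 2.15 to 7.41 elsewhere. The GC slope was 0.061 and 0.048 in PBS 1 and 2, −0.261 to −0.190 in OL and 0.046 to 0.108 in OLG. All OL slopes were thus below those of both other groups, so GC effects and treatment cannot be told apart in comparisons with OL. The OL libraries are numbered 12, 34, 56 and 78. Whether these numbers stand for pooled mice, and whether libraries of a group came from separate mice, is not stated, so the p-values below measure the spread between libraries.

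All 9 genes were expressed in all libraries. By mean FPKM over the 11 libraries, Cd74 stood first at 395, followed by H2-Eb1 at 93.1, H2-Ab1 at 79.6 and H2-Aa at 60.6, and then, a step lower, H2-DMa at 11.1, H2-DMb1 at 4.86, H2-Ob at 4.22, Ciita at 3.80 and H2-Oa at 1.33. Each gene exceeded the next in 11 of 11 libraries, except that H2-DMb1 exceeded H2-Ob in 8 and H2-Ob exceeded Ciita in 4, so these 3 did not separate. This order depends on the annotated exon lengths. Cd74 ranked between 35 and 75 among all genes of a library. The 9 genes together took 0.150% to 0.253% of the summed FPKM, from 0.191% to 0.253% in PBS, from 0.150% to 0.241% in OL and from 0.171% to 0.222% in OLG, and these ranges overlapped.

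**Figure D1:**
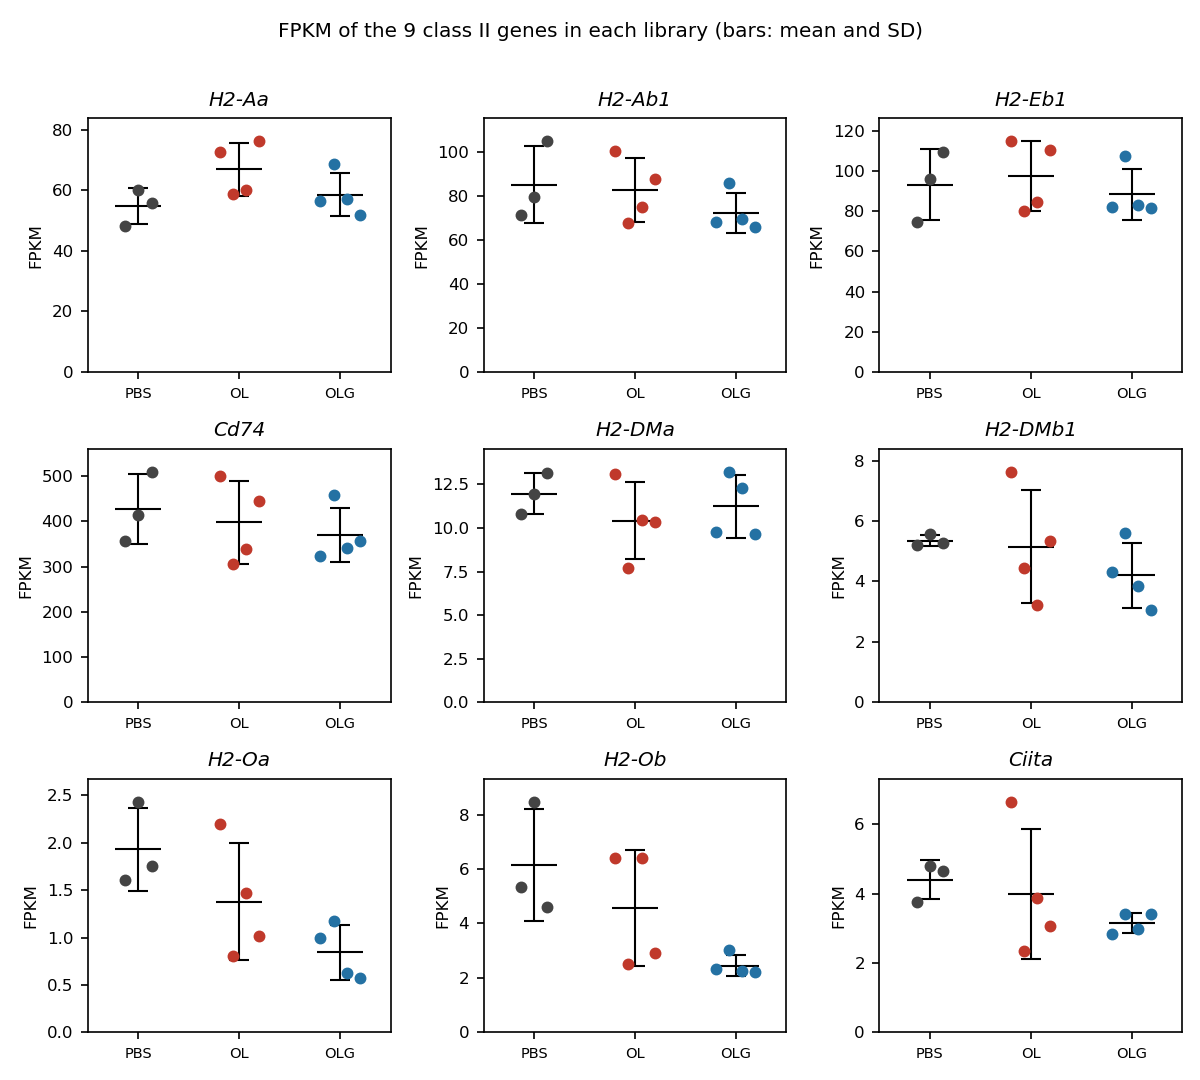
FPKM of each class II gene (vertical axes from 0, 1 panel per gene) in the 3 PBS, 4 OL and 4 OLG libraries. Points are libraries in order of their numbers, and bars give the mean and SD. For H2-Oa, H2-Ob and Ciita all 4 OLG points lie below the 3 PBS points, whereas the groups overlap in the other panels.

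The first question was whether sensitization and challenge moved the class II genes. Between OL and PBS, 0 of the 9 genes passed an adjusted p of 0.05 in limma, while 38.0% of the 14004 genes tested did. At an unadjusted p under 0.05 the numbers were 0 of 9 and 49.6%, and limma voom on the recovered fragments also called 0. The fitted log2 fold changes ran from −0.41 for H2-Ob to 0.28 for H2-Aa, with 2 above and 7 below 0 and a median of −0.12, beside −0.01 over all genes. After correction for GC content 8 were above and 1 below 0 and the median turned to 0.12. The groups overlapped in FPKM for all 9 genes, whereas 44.1% of genes had groups that did not overlap.

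The second question was whether GGsTop changed them. Between OLG and OL, limma again called 0 of the 9 genes, against 8.71% of all genes. An unadjusted p under 0.05 was reached by 1 of 9, H2-Ob, against 30.8% of genes, and voom called 0. The median log2 fold change was −0.19, beside 0.03 over all genes, and 8 of 9 genes were fitted below 0. Without OL 12 the median was −0.048, and after correction for GC content −0.36. The groups overlapped for all 9, whereas they did not in 29.7% of genes.

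Between OLG and PBS, limma called 0 of 9 genes, against 2.88% of all genes. H2-Oa and H2-Ob were under an unadjusted p of 0.05, that is 2 of 9 against 20.5% of genes, and voom called 0. The median was −0.22, beside 0.01 over all genes, and it was −0.067 without PBS 3, −0.11 after correction for GC content and −0.016 with library quality weights. In 3 of the 9 genes, H2-Oa, H2-Ob and Ciita, the OLG libraries were all below the PBS libraries, as in 7.54% of all genes, and 14.8% of genes had no overlap in either direction. The 3 comparisons share libraries, so their values are not independent of each other.

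**Figure D2:**
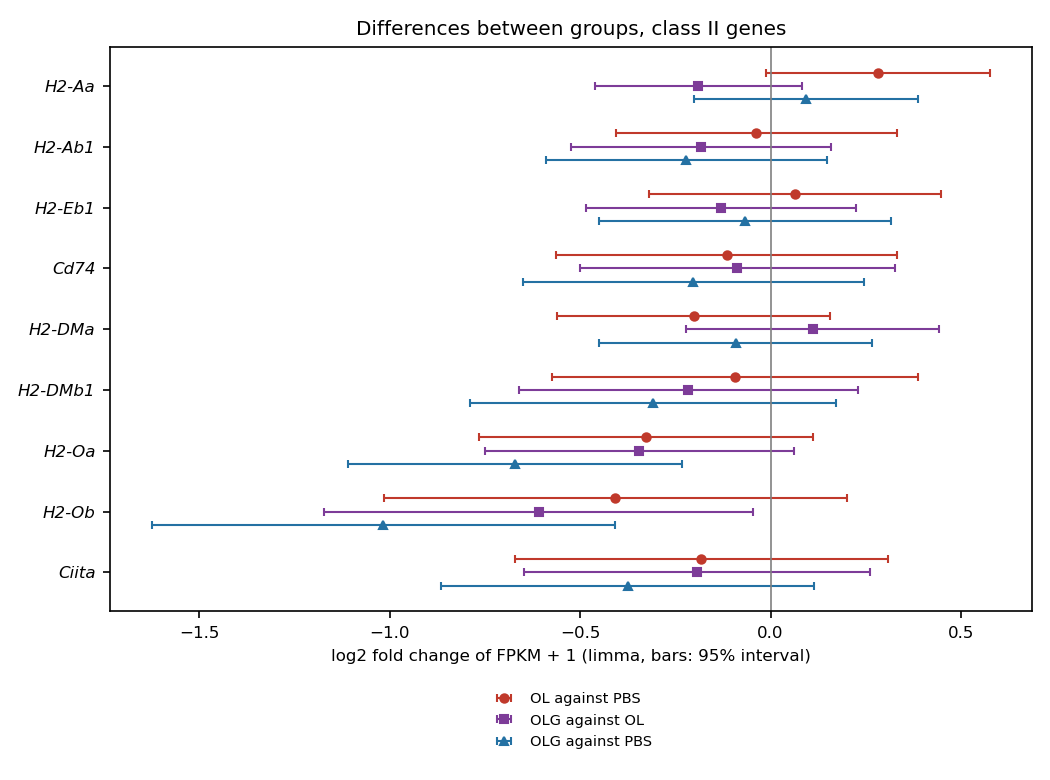
Log2 fold change of FPKM + 1 (horizontal axis) for the 9 class II genes in the 3 comparisons, as fitted by limma. Bars are 95% intervals and the vertical line marks 0. The intervals of H2-Ob (−1.62 to −0.41) and H2-Oa (−1.11 to −0.23) for OLG against PBS, and that of H2-Ob for OLG against OL, lie below 0 before adjustment, and the other intervals include 0.

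Among the chains that hold peptide, H2-Aa (chromosome 17, 34282744 to 34287823, GRCm38) encodes the α chain of I-A. Its FPKM were 48.3, 60.2 and 55.8 in PBS 1 to 3, 72.6, 58.9, 60.2 and 76.1 in OL 12, 34, 56 and 78, and 56.6, 68.7, 57.1 and 51.9 in OLG 1 to 4. The highest values were those of OL 12 and 78, whereas OL 34 lay within the range of PBS and OL 56 at its upper end. The mean was 54.8 ± 6.01 FPKM (SD, n = 3) in PBS and 67.0 ± 8.67 (n = 4) in OL, which is a difference of 0.28 on the log2 scale with a standard error (SE) of 0.13, a 95% interval of −0.01 to 0.58 and an adjusted p of 0.115 in limma. It was the class II gene with the smallest p in this comparison. With library quality weights it passed the threshold at 0.43 (adjusted p = 0.00714 in limma), whereas it was 0.15 after correction for GC content (adjusted p = 0.435) and 0.11 at the same FPKM total (adjusted p = 0.533). The weights raised the calls over all 14004 genes too, to 3443 higher and 4473 lower, from 2231 and 3096 without them.

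H2-Ab1 (34257689 to 34269419), the β chain of I-A, had 71.1, 79.6 and 105 FPKM in PBS, 101, 67.7, 74.9 and 87.7 in OL and 68.2, 85.7, 69.4 and 66.0 in OLG. The PBS libraries alone spanned nearly the whole range. Its log2 fold change was −0.04 for OL against PBS, with an interval of −0.41 to 0.33, and −0.18 (−0.53 to 0.16) for OLG against OL. H2-Aa and H2-Ab1 encode partners of the same dimer, yet their ratio was not fixed. H2-Aa per H2-Ab1 was 0.679, 0.756 and 0.533 in PBS, 0.722 to 0.870 in OL and 0.79 to 0.83 in OLG, so that every OLG ratio exceeded every PBS ratio. The lowest ratio was that of PBS 3, and the longest annotated transcript of H2-Aa has a GC content of 46.5% beside 57.3% for that of H2-Ab1. The part of GC content in this ratio was not tested.

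H2-Eb1 (34305867 to 34316674), the β chain of I-E, had 74.5, 95.9 and 109 FPKM in PBS, 115, 80.1, 84.7 and 111 in OL and 81.9, 107, 83.1 and 81.5 in OLG. The group means of 93.2 ± 17.5, 97.5 ± 17.6 and 88.5 ± 12.7 FPKM (SD, n = 3, 4 and 4) lay closer together than the libraries within a group. Its fold changes were 0.06 (−0.32 to 0.45), −0.13 (−0.49 to 0.22) and −0.07 (−0.45 to 0.32) on the log2 scale for OL against PBS, OLG against OL and OLG against PBS. H2-Eb1 per H2-Ab1 was steadier than H2-Aa per H2-Ab1, from 1.04 to 1.26 over all libraries. H2-Ea, the α partner of H2-Eb1, was not analysed here.

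The invariant chain gene Cd74 (chromosome 18, 60803848 to 60812652) had 356, 414 and 510 FPKM in PBS, 500, 305, 339 and 445 in OL and 324, 458, 342 and 356 in OLG. The library highest in Cd74 was PBS 3 and the lowest OL 34, and all groups overlapped. The log2 fold change was −0.12 (−0.56 to 0.33) for OL against PBS and −0.09 (−0.50 to 0.33) for OLG against OL. Without PBS 3 the former was 0.02, and without OL 12 the latter was 0.03. Each library rested on 8090 to 15944 fragments of Cd74. At the mean fragments of each group, counting error alone gives a coefficient of variation of 0.916% to 1.04%, while the libraries of a group varied by 16.3% to 22.9%. The spread of this gene was thus far wider than counting error. Cd74 per summed classical chain (H2-Aa, H2-Ab1 and H2-Eb1) was 1.84, 1.76 and 1.89 in PBS and 1.47 to 1.74 in OL, the OL ratios all lying below PBS, and 1.57 to 1.79 in OLG, which overlapped both. Cd74 has a GC content of 56.6%, beside 46.5% for H2-Aa, 57.3% for H2-Ab1 and 51.8% for H2-Eb1. After correction for GC content the log2 fold change for OL against PBS was 0.22 for Cd74, beside 0.15, 0.32 and 0.17 for these chains. Neither this ratio nor the part of GC content in it was tested.

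The editor H2-DM has the α chain H2-DMa (chromosome 17, 34119541 to 34139101) and the β chains H2-DMb1 and H2-DMb2. H2-DMa had 10.8, 11.95 and 13.2 FPKM in PBS, 13.1, 7.69, 10.5 and 10.4 in OL and 9.75, 13.2, 12.3 and 9.66 in OLG. OL 34 was the lowest, and the rest lay within a narrow band. It was the class II gene with a fitted value above 0 for OLG against OL, at 0.11 (−0.22 to 0.44, log2), which was −0.08 after correction for GC content. H2-DMb1 (34153072 to 34160230) had 5.21, 5.56 and 5.27 FPKM in PBS, 7.64, 4.44, 3.21 and 5.34 in OL and 4.31, 5.62, 3.85 and 3.05 in OLG, on 76 to 199 fragments. The PBS libraries were close together and the treated groups spread to either side of them. Its largest fitted difference was −0.31 (−0.79 to 0.17, log2) for OLG against PBS. H2-DMb2, a near copy outside the 9 genes whose reads the counting may have split with H2-DMb1, averaged 17.9 ± 3.77 FPKM (SD, n = 3) in PBS, 14.2 ± 5.32 (n = 4) in OL and 9.97 ± 3.02 (n = 4) in OLG. The FPKM of H2-DMb2 was 1.86 to 3.90 times that of H2-DMb1, a ratio that such a split of reads would affect. The fold change of H2-DMb2 for OLG against PBS was −0.80 on the log2 scale (SE 0.27, adjusted p = 0.135 in limma).

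The inhibitor H2-O gave the widest differences. H2-Ob (chromosome 17, 34238903 to 34254414), its β chain, had 5.36, 8.46 and 4.59 FPKM in PBS, 6.40, 2.52, 6.39 and 2.93 in OL and 2.33, 3.01, 2.25 and 2.21 in OLG. The OL libraries fell into a high and a low pair, 12 and 56 at the level of PBS and 34 and 78 near OLG, and the OLG libraries were uniformly low. Mean FPKM was 6.14 ± 2.05 (SD, n = 3) in PBS, 4.56 ± 2.13 (n = 4) in OL and 2.45 ± 0.376 (n = 4) in OLG. For OLG against PBS the log2 fold change was −1.02 (SE 0.28, 95% interval −1.62 to −0.41), with an adjusted p of 0.0709 in limma. After correction for GC content it was −1.07 (adjusted p = 0.0518), with quality weights −0.92 (adjusted p = 0.0250), without PBS 3 −1.17 (adjusted p = 0.133) and with GC correction and the library number shared by PBS and OLG as replicate block −1.04 (adjusted p = 0.0216), so that the call in limma depended on the setting. Over all genes the weights raised the calls in this comparison to 1379 higher and 1178 lower, from 288 and 115 without them. With each library left out in turn the value of H2-Ob lay between −1.17 and −0.79 (adjusted p = 0.0681 to 0.156). The difference from OL was −0.61 (SE 0.26, −1.17 to −0.05, adjusted p = 0.136), and that of OL from PBS −0.41 (SE 0.28, −1.02 to 0.20, adjusted p = 0.256).

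H2-Oa (34092340 to 34095234), the α chain of H2-O, was the least expressed of the 9 genes, with 12 to 53 fragments per library. Its FPKM were 1.60, 2.43 and 1.75 in PBS, 2.20, 0.809, 1.47 and 1.02 in OL and 0.991, 1.18, 0.631 and 0.576 in OLG. As for H2-Ob, OL 12 and 56 lay above 34 and 78, and all OLG libraries lay below PBS. The log2 fold change for OLG against PBS was −0.67 (SE 0.20, −1.11 to −0.23, adjusted p = 0.0926 in limma). On the recovered fragments, where no constant of 1 FPKM dampens a low gene, voom gave −1.21 for H2-Oa and −1.28 for H2-Ob (adjusted p = 0.116 and 0.0798). At the mean fragments of each group, counting error alone gives H2-Oa a coefficient of variation of 15.0% to 23.7%, and more in the libraries with the fewest fragments. Libraries of a group varied by 22.8% to 44.7%, so that part of the spread of H2-Oa is counting.

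The balance of inhibitor and editor followed these values. H2-Oa and H2-Ob together amounted to 43.5%, 62.2% and 34.4% of H2-DMa and H2-DMb1 in PBS, to 41.5%, 27.4%, 57.4% and 25.1% in OL and to 23.7%, 22.2%, 17.8% and 21.9% in OLG. In this ratio the highest OLG library was below the lowest library of each other group. With H2-DMb2, the β chain of higher FPKM, counted in the editor, the ratio was 19.5% to 27.8% in PBS, 13.1% to 30.2% in OL and 12.4% to 13.8% in OLG, so that OLG still lay below PBS but overlapped OL. This ratio was formed with the values of its genes known and was not tested.

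The sum of B cell markers varied along with H2-O over the libraries. The 9 B cell markers, among them the antigen receptor chains Cd79a and Cd79b and the IgE receptor Fcer2a, summed to 109 to 137 FPKM in PBS, 44.6 to 126 in OL and 38.3 to 75.1 in OLG. By library, OL 12 and 56 had 126 and 124 FPKM and OL 34 and 78 had 44.6 and 67.4, the same split as for H2-Ob. The median log2 fold change of the markers for OLG against PBS was −0.90, with 0 of 9 called by limma in any comparison, and none of the 9 was listed at 0 in any library. Cd79a and Cd79b, with means of 41.3 and 33.4 FPKM in PBS, carried much of the sum. For OL against PBS, Ms4a1 and Cr2 were fitted above 0, at 0.62 and 0.55, and the other markers below 0. H2-Ob per B cell marker sum was 4.22% to 6.19% in PBS, 4.34% to 5.65% in OL and 3.50% to 5.88% in OLG, so that per B cell marker the groups overlapped. In bulk RNA, fewer cells of a type and less RNA per cell cannot be told apart. The part of B cell number in the H2-O values was not tested.

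**Figure D3:**
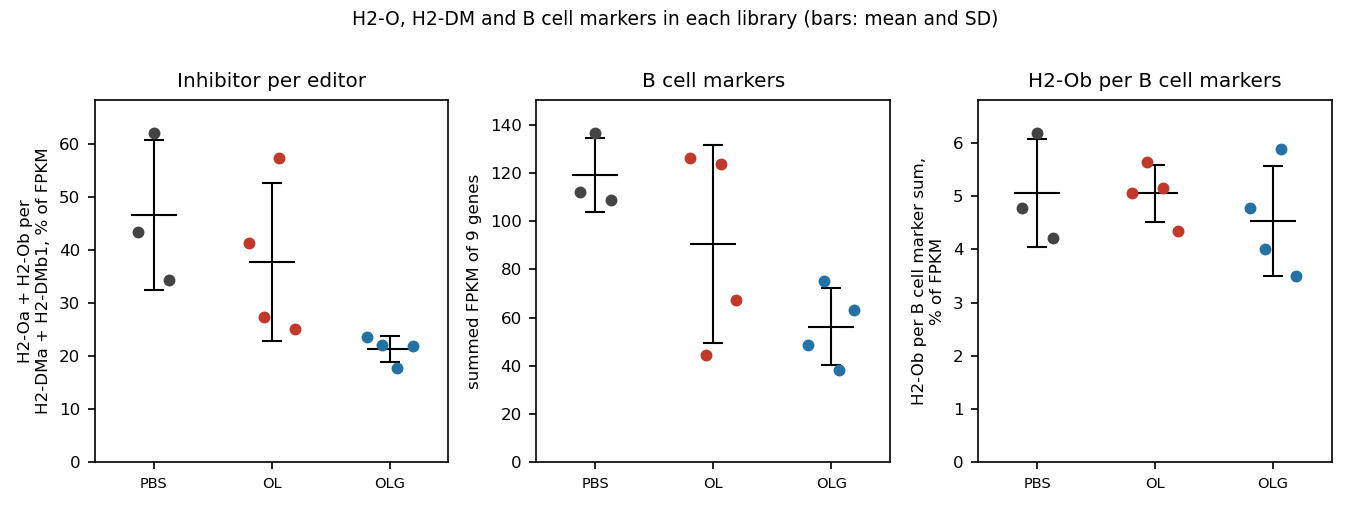
Left, summed FPKM of H2-Oa and H2-Ob as a percent of H2-DMa and H2-DMb1. Middle, summed FPKM of 9 B cell markers. Right, H2-Ob as a percent of that sum. Points are libraries, bars the mean and SD, and vertical axes start at 0. The OLG libraries lie at 17.8% to 23.7% on the left, where H2-DMb2 is not counted (with it, 12.4% to 13.8%, overlapping OL), and at 38.3 to 75.1 FPKM in the middle, below all PBS libraries in both, whereas the groups overlap on the right.

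Ciita (chromosome 16, 10480059 to 10528418) had 3.75, 4.80 and 4.65 FPKM in PBS, 6.64, 2.36, 3.87 and 3.06 in OL and 2.83, 3.41, 2.98 and 3.4 in OLG. Both the highest and the lowest library were OL, and the OLG libraries lay together just below PBS. The log2 fold change for OLG against PBS was −0.38 (SE 0.22, −0.87 to 0.11, adjusted p = 0.364 in limma), and for OLG against OL −0.19 (−0.65 to 0.26), which was 0.04 without OL 12. That library also had the highest thymic marker sum and, among OL, the highest H2-Ab1, H2-Eb1, Cd74, H2-DMa, H2-DMb1 and H2-Oa. It was highest among OL in H2-Ob too, though barely (6.40 FPKM, against 6.39 in OL 56). The part of thymic tissue in these values was not tested, and leaving the library out left 0 of 9 genes called by limma in each comparison. Ciita amounted to 0.686% to 1.33% of Cd74, with overlapping groups.

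Class II genes in the airway are carried by several cell types, whose marker sums are given beside them. Dendritic cell markers, 12 genes with Itgax, Clec9a and Fscn1 the most abundant, summed to 73.1 to 77.5 FPKM in PBS, 61.7 to 76.4 in OL and 59.6 to 80.5 in OLG. Of these 12, Ccr7, the receptor that guides mature dendritic cells and naive lymphocytes to lymph nodes, fell by 1.20 on the log2 scale in OL against PBS (adjusted p = 0.00397 in limma) and by 1.43 in OLG against PBS (adjusted p = 0.0100), while Cd207, a marker of a dendritic subset, rose in OLG against PBS by 1.05 (adjusted p = 0.0240). Without PBS 3 both calls against PBS in OLG were lost (adjusted p = 0.0517 and 0.0974), with values of −1.39 and 1.01 that were about as large. Macrophage markers, led by the chitinase-like gene Chil3, summed to 219 to 295 FPKM in PBS, 277 to 1013 in OL and 488 to 979 in OLG, the last all above PBS. Chil3 carried these sums, with means of 60.3, 462 and 458 FPKM. Of the 12 macrophage markers, 2 were called higher and 2 lower in OL against PBS, with a median log2 fold change of −0.087. Over all genes 15.9% were called higher and 22.1% lower in this comparison. Chil3 rose by 2.65 and C1qa by 0.66 (adjusted p = 0.00569 and 0.0214 in limma). The macrophage growth factor receptor Csf1r fell by 0.61 and the receptor kinase Mertk by 0.47 (adjusted p = 0.0151 and 0.0454 in limma). Without PBS 3 the calls of Csf1r and Mertk were lost (adjusted p = 0.0636 and 0.105), and that of Csf1r also after correction for GC content (adjusted p = 0.0774). Csf1r was higher in OLG than in OL by 0.61 (adjusted p = 0.0351), which was 0.44 after correction for GC content (adjusted p = 0.0789). Markers of all leukocytes overlapped between the groups, at 207 to 252, 175 to 291 and 151 to 227 FPKM. Cd74 per leukocyte marker sum was 1.64 to 2.03 in PBS, 1.55 to 2.12 in OL and 1.83 to 2.35 in OLG, again overlapping. T cell markers summed to 28.3 to 50.3, 23.3 to 87.8 and 18.7 to 31.3 FPKM, and smooth muscle markers to 526 to 715, 450 to 487 and 427 to 1062 FPKM.

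The machinery around the 9 genes held several called genes. A list of 47 other class II pathway genes had 43 in the file, all of them tested. Between OL and PBS, 7 were called higher and 5 lower, 12 in all or 27.9%, beside 38.0% of all genes (15.9% higher and 22.1% lower). By share, the list moved no more often than genes at large. Alveolar type 2 markers, whose sums in OL all lay below PBS, had 5 of 9 called lower in the same comparison, and the part of tissue content in the pathway values was not tested. Without PBS 3 there were 5 calls, Ctsl, Sppl2a, Creb1, Stat6 and Icosl, and after correction for GC content 4, Stat6, Cd40, Prdm1 and Cd63. With libraries scaled to the same FPKM total, 1 was higher and 14 were lower, and at the same median 8 were higher and 3 lower.

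Among 14 genes that process antigen, 4 were higher and 1 lower in OL, beside 15.9% higher and 22.1% lower over all genes. Ctss, cathepsin S, which trims the invariant chain down to CLIP, rose from 112 ± 4.02 FPKM (SD, n = 3) in PBS to 205 ± 69.5 (n = 4), by 0.80 on the log2 scale (SE 0.28, adjusted p = 0.0409 in limma). Ctsl, another cathepsin, rose by 0.45 (adjusted p = 0.0143), Sppl2a, the protease that clears the membrane stub of the invariant chain, by 0.55 (adjusted p = 0.0197) and Ap1s2, an adaptor subunit of vesicle sorting, by 0.73 (adjusted p = 0.0231). After correction for GC content none of these 4 was called, at 0.63, 0.18, 0.04 and 0.09 in the same order. The tetraspanin Cd82 fell by 0.30 (adjusted p = 0.0444), and its call too was lost after correction for GC content (−0.012, adjusted p = 0.932).

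The 16 genes of class II transcription had 2 higher and 2 lower in OL against PBS, beside 15.9% higher and 22.1% lower over all genes. Creb1, which binds within the X box region, rose by 0.72 (adjusted p = 0.00686 in limma), and the Y box factor subunits moved oppositely, in that Nfyb rose by 0.49 (adjusted p = 0.0174) and Nfya fell by 0.34 (adjusted p = 0.0441), beside Nfyc, the remaining subunit, at −0.16 (adjusted p = 0.236). Stat6, which relays interleukin-4 and interleukin-13, fell by 0.55 (adjusted p = 0.00880). Of the X box complex, Rfx5 was at −0.28 (adjusted p = 0.0783), Rfxap at −0.02 and Rfxank at −0.30, and none of the 3 passed the test. Among 9 genes of surface turnover and co-stimulation, March1, the ubiquitin ligase that removes class II from the surface, rose by 0.52 (adjusted p = 0.0192), while Cd40 fell by 0.74 (adjusted p = 0.0140) and Icosl by 0.43 (adjusted p = 0.0289). The call of Cd40 and that of Stat6 held after correction for GC content (−0.76 and −0.35, adjusted p = 0.0236 and 0.0481). The other calls of these 2 sets were lost with it, with Creb1 at 0.22, Nfyb at 0.12, Nfya at −0.27, March1 at 0.047 and Icosl at −0.29 (adjusted p = 0.0626, 0.405, 0.118, 0.818 and 0.159), and those of Nfyb, Nfya, March1 and Cd40 were also lost without PBS 3.

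OLG against OL moved 2 of the 43 genes (4.65%, beside 8.71% of all genes, of which 6.9% were higher and 1.81% lower). Stat6 rose by 0.46 (SE 0.12, adjusted p = 0.0389 in limma), from 28.5 ± 2.60 to 39.5 ± 4.50 FPKM (SD, n = 4 each), and Creb1 fell by 0.54 (SE 0.14, adjusted p = 0.0408), from 9.59 ± 0.277 to 6.28 ± 0.656 FPKM. With libraries scaled to the same FPKM total the split was 3 higher and 0 lower, and at the same median 0 higher and 4 lower. The differences of Stat6 and Creb1 ran opposite to those of OL from PBS, with which they share the OL libraries. March1, at −0.48, and Ctsl, at −0.37, were the next by p (adjusted p = 0.0515 and 0.0526). After correction for GC content 0 of the 43 genes were called by limma, with Stat6 at 0.32 and Creb1 at −0.19 (adjusted p = 0.108 and 0.149), and with any of the OL or OLG libraries left out the count was 0 or 1, whereas without PBS 2 it was 4 and without PBS 3 it was 8. Between OLG and PBS, 0 of 43 were called by limma and 0 by voom, 3 at an unadjusted p under 0.05. These 3 were Prdm1, a repressor of Ciita, at −0.57 (adjusted p = 0.0635), Cd40 at −0.65 (adjusted p = 0.0937) and H2-DMb2.

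**Figure D4:**
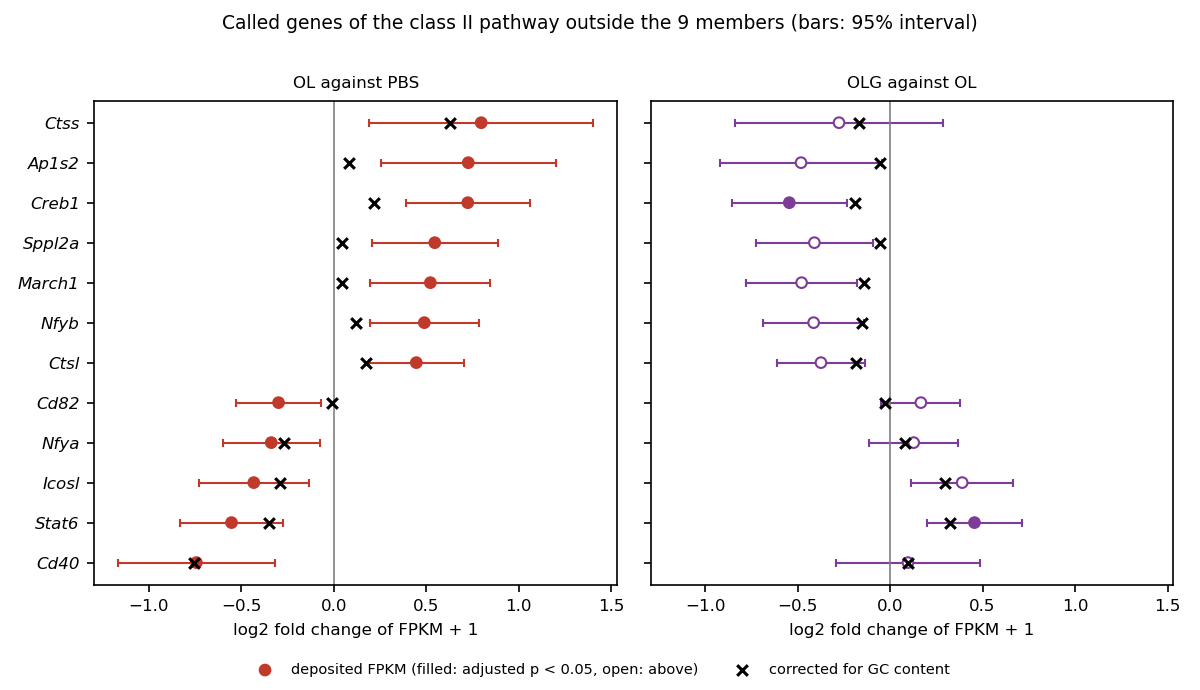
Log2 fold change of FPKM + 1 (horizontal axes) of the 12 class II pathway genes outside the 9 that passed an adjusted p of 0.05 in either comparison, for OL against PBS on the left and OLG against OL on the right. Circles are the deposited FPKM with 95% intervals, filled where called, and crosses the values after correction for GC content. On the left all 12 are called, and crosses lie nearer to 0 than circles for most genes but not for Cd40; on the right Creb1 and Stat6 are called.

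The genes whose profiles over the 11 libraries were most like the classical chains and Cd74 were found by Pearson's r of log2(FPKM + 1) with the mean standardised profile of H2-Aa, H2-Ab1, H2-Eb1 and Cd74. They were Hvcn1, a proton channel of phagocytes and B cells (r = 0.90), Galnt6 (0.851), Slamf8 (0.834), Hcls1 (0.834), Ctsd (0.827), Hcst (0.823), Srbd1 (0.808), Pik3cg (0.798), Ctse (0.796) and Rpl13a (0.795). Within the 9 genes, r with this profile was 0.727 for H2-DMb1, 0.647 for H2-DMa, 0.598 for Ciita, 0.510 for H2-Oa and 0.327 for H2-Ob. H2-Ob thus went along with the classical chains the least. Its own nearest profiles were Fcer2a (r = 0.984), Ripor2 (0.958), Cd22 (0.952), Cd72 (0.951) and Pax5 (0.951), and H2-Oa had r = 0.935 with it. Fcer2a, Cd22, Cd72 and Pax5 are genes of B cells, and Fcer2a, Cd22 and Pax5 are among the 9 markers. Ciita was most like Was (r = 0.935), Carmil2 (0.924), Cd6 (0.917), Cdca7l (0.916) and Mcm5 (0.915). These are descriptions over 11 libraries that share depth, tissue content and the GC differences given above.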

How the data were processed

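Poly-A RNA of 11 airway libraries was sequenced by a service company. The authors deposited FPKM for 21899 genes. Per the labels, cutadapt 1.15, HISAT2 2.0.5, HTSeq 0.9.1 and the build mm39 were used, while the exon lengths behind the FPKM match GENCODE M21 on GRCm38, whose coordinates are given for genes. FPKM times exon length gave whole fragments (within 0.05) in every library for 21439 genes (97.9%), and from these the library totals were taken.

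The 14004 genes averaging 0.5 FPKM or more over the libraries, all 9 class II genes among them, were fitted as log2(FPKM + 1) with limma 3.58.1 in R 4.3.3, in 1 fit of all libraries with a mean-variance trend. Tests were two-sided, with Benjamini-Hochberg adjustment across the genes tested. The constant of 1 understates fold changes of low genes. GC content was that of the longest annotated transcript of each gene, which need not be the main one expressed. It was corrected with a spline of 5 degrees of freedom per library. The fit was tested on simulated data with independent errors, which carried no GC or tissue differences between libraries and so could not show their effect. The members and lists were chosen with earlier results of these data known. A B cell marker of the original list is not reported here and was left out of the marker sum. Of other pathway genes, those called or with the 3 smallest p per comparison are named, of marker lists up to 5 by mean FPKM, and by likeness 10 genes for the classical chains and 5 each for H2-Ob and Ciita. Ccr7 and Cd207 were named as called markers after their values were seen, as were Rfx5, Rfxap, Rfxank, Nfyc, Cd63, Csf1r and Mertk. Ms4a1 and Cr2, which were not called, were also named after their values were seen.

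PBS and OLG share the numbers 1 to 3. Deviations of same-numbered libraries from their group means correlated at 0.367, 0.427 and 0.428, so a fit with the number as replicate block was made. However, PBS 1 correlated more with OLG 3 (0.457) and PBS 2 more with OLG 4 (0.637), so the shared number need not mark a pairing. Figures were drawn with Python 3.11.15 and matplotlib 3.10.9. Alternatives were another constant, filter, scaling or spread, quality weights, GC correction, each library left out, and, added after seeing the data, voom and H2-DMb2 counted in H2-DM.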

Additional observations from a re-analysis of the deposited data

Results flagged for a closer look

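In 18 sets of 4 libraries, 9 genes in 2 groups, Dixon's test at its 95% level picked out 2 values, both from the library OLG 2. H2-Eb1 was at 107 FPKM there, against 81.5 to 83.1 in the other OLG libraries, and H2-Ob at 3.01 FPKM, against 2.21 to 2.33. Such a test marks some groups by chance alone at this level. The same library had the highest sums of B cell markers (75.1 FPKM) and of all leukocyte markers (227 FPKM) in its group. The part of leukocyte content in these values was not tested.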

How the results depend on the processing

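The count of class II genes called was 0 in every comparison under all alternatives except these. Array quality weights gave 1 for OL against PBS (H2-Aa, 0.43) and 1 for OLG against PBS (H2-Ob, −0.92). These weights raised the calls over all 14004 genes as well. For OL against PBS 3443 were higher and 4473 lower, for OLG against OL 3232 and 1982, and for OLG against PBS 1379 and 1178. The replicate block gave 0 class II genes, and the replicate block with GC correction gave 1 class II gene (H2-Ob, −1.04, adjusted p = 0.0216 in limma) and 1 other pathway gene. Leaving out libraries in turn gave 0 class II genes in each comparison. The number of other pathway genes called for OL against PBS was 12, and 20 with weights, 4 with GC correction, 0 with GC correction without PBS 3, and 5 to 14 with libraries left out. For OLG against OL it was 2, and 1 without the filter, 4 at the same median, 0 without mitochondrial genes, 10 with weights, 9 with only the groups compared, 0 with GC correction with or without PBS 3, and 0 to 8 with libraries left out. For OLG against PBS it was 0, and 4 with weights, 1 with GC correction, and 0 to 2 with libraries left out. The cause of these changes was not tested. Uncalled values that changed sign were, for OL against PBS with GC correction and then also without PBS 3, H2-Ab1 at 0.32 and 0.36, Cd74 at 0.22 and 0.24, Ciita at 0.096 and 0.037, H2-DMa at 0.075 and 0.047 and H2-DMb1 at 0.12 and 0.037, and H2-Oa with GC correction at 0.0059. With weights H2-Ab1 was at 0.13 and Cd74 at 0.063, and at the same FPKM total, which moved the median of all genes to −0.15, H2-Eb1 was at −0.11. For OLG against OL these were H2-DMa with GC correction (−0.076, with or without PBS 3) and Cd74 at the same FPKM total (0.0092). For OLG against PBS these were H2-Eb1 at 0.19 with weights, 0.053 with GC correction without PBS 3 and 0.015 with the replicate block and GC correction, and H2-DMa at 0.019 with weights and 0.067 with the replicate block and GC correction. With libraries left out, log2 fold changes for OL against PBS ranged from −0.16 to 0.12 for H2-Ab1, −0.087 to 0.19 for H2-Eb1, −0.24 to 0.020 for Cd74 and −0.27 to 0.074 for H2-DMb1, for OLG against OL from −0.20 to 0.033 for Cd74, −0.36 to 0.036 for Ciita and −0.014 to 0.22 for H2-DMa, and for OLG against PBS from −0.22 to 0.055 for H2-Eb1. Of 666 alternative values of single class II genes, 35 changed sign and 3 passed the threshold. Depth limited H2-Oa, at 12 to 53 fragments, more than the other class II genes.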
